A study of Mus musculus with 6 samples.

Results

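The Egr, Nr4a and Ier genes compared here are 10 immediate early genes, taken by name from a table of 31053 genes counted in muscle stem cells (MuSCs) of 6 mice. They are Egr1, Egr2 and Egr3, Nr4a1, Nr4a2 and Nr4a3, and Ier2, Ier3, Ier5 and Ier5l, and each was found under its own Ensembl identifier. The RNA also held markers of other cell types, so levels are those of the sorted cells as a whole. In mice with a conditional deletion of the type 2 deiodinase (cD2KO), 9 of the 10 genes had a lower fitted level than in WT mice, and Nr4a3 alone had a higher one. Egr1, Nr4a2 and Ier2 fell at an unadjusted p under 0.05, as did 6.62% of all genes tested, and no member passed after adjustment. With no minimum on expression Ier2, Ier3 and Egr1 passed after adjustment. The calls depended on single mice. The WT mouse c129 had the highest level of 7 of the 10 genes. Without it, 0 of the 9 members still tested were called. Their median log2 difference was -0.34, against -0.59 for all 10 with every mouse. The calls of Egr1 and Ier2 were also lost without the cD2KO mouse fl125 or without fl128. Nr4a2 was still called with c129 and fl125 left out together.

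The study asked how the deiodinase encoded by Dio2, which makes active thyroid hormone inside the cell, acts on quiescence, and the RNA came from freshly isolated quiescent MuSCs (qMuSCs) of resting hindlimb muscle. WT mice (c124, c129, c130) were Pax7nGFP/+;Pax7+/+;Dio2Fl/Fl, and cD2KO mice (fl125, fl126, fl128) were Pax7nGFP/+;Pax7-CreERT2/+;Dio2Fl/Fl. Mice of both groups were 3 to 4 months old, carried floxed Dio2 alleles and the Pax7nGFP reporter by which cells were sorted, and are labelled as treated with tamoxifen (Tamoxifene). The recombinase CreERT2 is driven by Pax7, a gene that marks MuSCs, and is carried by the cD2KO mice alone, so that effects of Cre and of the deletion cannot be told apart. Each mouse gave 1 library, and the p-values below measure the spread between these 6 animals. In RNA from a sorted population, fewer cells of a type and less RNA per cell cannot be told apart.

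Immediate early genes are transcribed within minutes of a stimulus from promoters that need no new protein, through factors such as SRF with its ELK partners and CREB. The Egr genes encode zinc finger factors that bind GC-rich sites, and the Nr4a genes encode orphan nuclear receptors whose activity is set mainly by their amount. The Ier genes are named for their rapid induction. In muscle stem cells genes of this class are known to be induced during activation, and also by the enzymatic dissociation that precedes sorting.

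Total counts lay between 2184073 and 3897787 per mouse, and their group means differed by less than the spread between mice (exact permutation test, two-sided, p = 0.7, the smallest possible being 0.1). A principal component analysis put 45.1% of the variance on its first axis, with c129 (-50.7) and fl125 (72.6) at its ends and the other mice between -25.2 and 7.52. Dio2 was at 5.41, 1.86 and 3.48 CPM (counts per 1000000, after library scaling) in c124, c129 and c130 and at 6.83, 1.72 and 0.316 CPM in fl125, fl126 and fl128 (exact permutation test, two-sided, p = 0.7). The groups overlapped and Dio2 was under the expression minimum, so the deletion was not seen in these counts, which were too few to judge it. The paper reports, from a separate measurement of gene rearrangement, that tamoxifen depleted D2 in most qMuSCs. Dio2 also shares bases with Gm26512, annotated on the other strand, and its reads are uncertain there if strand was not used. Of 5 sex-linked genes 4 were tested, and Eif2s3y alone fell (log2 fold change -1.56, adjusted p = 0.0885).

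The expression minimum, a mean of 10 normalized counts, was passed by all 10 genes and by 11633 genes in all. Of the 10 genes, 3 fell and 0 rose at an unadjusted p under 0.05 (edgeR's quasi-likelihood test), where 6.62% of all genes tested fell and 5.34% rose (11.96% in either direction). At an adjusted p under 0.05 or under 0.1 there were 0 of the 10, and 0.00860% and 0.774% of all genes, and the lowest adjusted p of a member was 0.224. The lowest was that of Ier2 with DESeq2 (adjusted p = 0.0617) and of Nr4a2 with limma voom (adjusted p = 0.275), and with no minimum on expression Ier2, Ier3 and Egr1 had adjusted p = 0.000301, adjusted p = 0.0143 and adjusted p = 0.0164. Fitted log2 fold changes (cD2KO minus WT) were below 0 in 9 of 10 members against 51.9% of all genes, with a median of -0.59 against -0.02. In 4 members, Egr2, Nr4a2, Ier2 and Ier5, every cD2KO mouse lay below every WT mouse, which was so for 10.04% of all genes, and the opposite order was found in 0 members and 8.05% of all genes. By family, the median difference was -0.86 for Egr, -0.33 for Nr4a and -0.73 for Ier.

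**Figure D1:**
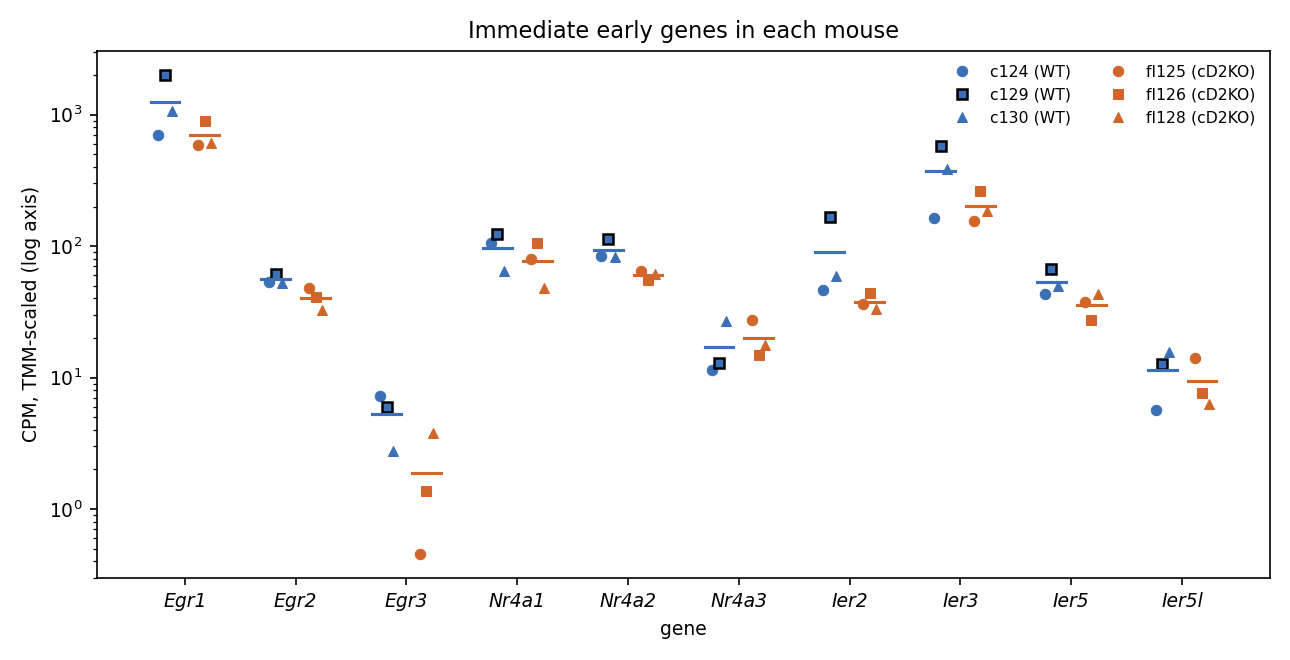
Level of each gene in each mouse, as TMM-scaled CPM on a log axis, with WT mice in blue, cD2KO mice in orange and a bar at each group's mean. The square outlined in black is c129, which stands at 2016 CPM for Egr1 and 167 CPM for Ier2, above all other mice.

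Egr1 (ENSMUSG00000038418, chr18:34859823-34864984 of mm10, plus strand) encodes the best known factor of its family, a target of SRF and ELK downstream of ERK. Its level was 696 CPM in c124, 2016 CPM in c129 and 1065 CPM in c130, against 587 CPM in fl125, 891 CPM in fl126 and 607 CPM in fl128, from 1289 to 5429 counts per mouse. Thus c129 was highest by far, c130 was above every cD2KO mouse, and c124 lay within the cD2KO range. The WT mean was 1259 ± 681 CPM and the cD2KO mean 695 ± 170 CPM (SD, n = 3 each). Egr1 fell by 0.86 on the log2 scale (SE 0.35, 95% interval -1.64 to -0.08; edgeR's quasi-likelihood test, adjusted p = 0.379). Without c129 the difference was -0.32 and was not called (adjusted p = 0.831), and without c129 and fl125 it was -0.20 (adjusted p = 0.765). Nor was it called without fl125 (-0.71, adjusted p = 0.455) or without fl128 (-0.77, adjusted p = 0.681).

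Egr2 (ENSMUSG00000037868, chr10:67535475-67542188, plus strand), also called Krox20, is known from hindbrain development. It was at 53.0, 61.6 and 52.6 CPM in c124, c129 and c130 and at 47.8, 41.3 and 32.8 CPM in fl125, fl126 and fl128. All cD2KO mice lay below all WT mice, and c129 stood out less than for Egr1. The difference of -0.46 (SE 0.23, 95% interval -0.96 to 0.04) did not pass the test (edgeR, adjusted p = 0.467), and passed the unadjusted threshold without fl125 (-0.55, adjusted p = 0.284).

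The 250 bases before 1 of the annotated starts of Egr2 are shown because they hold both kinds of site that serve this gene class. RefSeq (GRCm38.p6) gives them at chr10:67537619-67537868 on the plus strand. Capitals mark a CArG box, the site SRF binds, at -72 from the start, and the CRE half-site TGACG, bound by CREB and its relatives, at -111 on the forward and at -55 on the reverse strand, where it reads CGTCA.
Egr2: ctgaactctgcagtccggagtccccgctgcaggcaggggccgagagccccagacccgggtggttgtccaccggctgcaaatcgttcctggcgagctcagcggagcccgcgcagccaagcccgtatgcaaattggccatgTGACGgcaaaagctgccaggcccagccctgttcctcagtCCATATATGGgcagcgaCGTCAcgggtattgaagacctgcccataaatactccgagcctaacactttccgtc
Of 32851 promoter windows of 250 bases, 1.47% held a CArG box and 17.8% held TGACG on either strand. RefSeq gave a window for 7 of the 10 genes, with 11 windows in all, of which 5 belonged to Egr2 and partly overlapped, and motif matches are descriptions of sequence only.

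Egr3 (ENSMUSG00000033730, chr14:70077203-70082614, plus strand), a close relative known from muscle spindles and T cells, was near the lower limit of these libraries. It had 28, 16 and 8 counts in c124, c129 and c130 and 1, 4 and 12 counts in fl125, fl126 and fl128, or 7.21, 5.94 and 2.78 CPM against 0.455, 1.38 and 3.79 CPM. The groups overlapped through c130 and fl128, and the single count of fl125 is under the 3 counts (0.773 to 1.37 CPM) below which a level is not told from 0. Its difference of -1.43 (SE 0.77, 95% interval -3.08 to 0.21) did not pass (edgeR, adjusted p = 0.497).

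Nr4a1 (ENSMUSG00000023034, chr15:101254269-101274795, plus strand), also called Nur77, is the family member most used as a reporter of recent stimulation. Its levels of 105, 123 and 64.4 CPM in c124, c129 and c130 overlapped with the 79.7, 105 and 48.0 CPM of fl125, fl126 and fl128. In each group 1 mouse, c130 or fl128, was well below the other 2. The difference was -0.33 (SE 0.30, 95% interval -0.98 to 0.32; edgeR, adjusted p = 0.731).

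Nr4a2 (ENSMUSG00000026826, chr2:57106830-57124003, minus strand), or Nurr1, known for its part in dopaminergic neurons, had the lowest adjusted p of the 10 genes. It was at 84.5 CPM in c124, 113 CPM in c129 and 82.1 CPM in c130, and at 64.7 CPM in fl125, 55.0 CPM in fl126 and 61.6 CPM in fl128. All 3 cD2KO mice lay below all 3 WT mice, with group means of 93.2 ± 17.1 and 60.4 ± 4.92 CPM (SD, n = 3 each). Nr4a2 fell by 0.62 on the log2 scale (SE 0.21, 95% interval -1.07 to -0.18; edgeR, adjusted p = 0.224). It passed the unadjusted threshold in 14 of the 15 alternatives tried, including the one without c129 and fl125 (-0.48, adjusted p = 0.300). The exception was the fit without c129 alone (-0.44, adjusted p = 0.663).

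Nr4a3 (ENSMUSG00000028341, chr4:48045153-48086447, plus strand), or NOR-1, was the only member with a fitted difference above 0. It was at 11.3, 13.0 and 26.8 CPM in c124, c129 and c130 and at 27.3, 14.8 and 17.7 CPM in fl125, fl126 and fl128. The highest mice were c130 and fl125, 1 of each group, and c129 was below the mean of the other WT mice (0.682 of it). The difference of 0.22 (SE 0.39, 95% interval -0.62 to 1.06; edgeR, adjusted p = 0.883) changed sign when c124 (-0.011) or fl125 (-0.022) was left out.

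The 3 Nr4a promoters are shown together because each window held TGACG 4 times within 250 bases, counting both strands. Only 0.137% of the 32851 windows held 4 or more, while 17.8% held at least 1. For Nr4a3 the stretch ends at -153, before the gene as annotated in mm10, so that 3 of its 4 matches are printed. Capitals mark TGACG, or CGTCA where it lies on the reverse strand, and the strands of the genes are plus, minus and plus.
Nr4a1, chr15:101266596-101266845: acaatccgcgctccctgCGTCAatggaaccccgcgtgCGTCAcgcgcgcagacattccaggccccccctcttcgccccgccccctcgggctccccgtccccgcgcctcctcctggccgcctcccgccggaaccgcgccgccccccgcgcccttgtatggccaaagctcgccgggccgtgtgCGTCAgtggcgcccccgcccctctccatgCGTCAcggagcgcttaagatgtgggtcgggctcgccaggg
Nr4a2, chr2:57124004-57124253: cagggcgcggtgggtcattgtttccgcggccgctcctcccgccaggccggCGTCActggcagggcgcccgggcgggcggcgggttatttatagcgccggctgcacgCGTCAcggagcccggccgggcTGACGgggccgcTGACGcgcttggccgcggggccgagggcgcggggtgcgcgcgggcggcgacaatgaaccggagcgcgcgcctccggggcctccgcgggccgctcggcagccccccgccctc
Nr4a3, chr4:48045055-48045152: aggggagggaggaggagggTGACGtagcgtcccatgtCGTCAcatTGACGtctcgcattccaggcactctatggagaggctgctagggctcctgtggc
The matches stood at -233, -213, -69 and -40 in Nr4a1, all reverse. In Nr4a2 they stood at -200 and -144 on the reverse and at -123 and -111 on the forward strand, and in Nr4a3 at -231, -205 and -147 on the forward and at -213 on the reverse strand. The EGR site GCGNGGGCG, found in 4.70% of windows, occurred at -60 in Nr4a1 and at -74 in Nr4a2, and TATAAA (12.4% of windows) at -164 in Nr4a2 on the reverse strand. The 3 genes with these windows had differences of -0.33, -0.62 and 0.22, in the order printed. The full CRE TGACGTCA, which contains the half-site (1.55% of windows), the NR4A monomer site AAAGGTCA (1.34%) and the AP-1 site TGANTCA (6.75%) were found in 0 of the 11 windows.

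Ier2 (ENSMUSG00000053560, chr8:84661331-84662852, minus strand), a gene of 1 exon whose product is a nuclear protein, had the largest fitted difference after Egr3. It was at 46.6 CPM in c124, 167 CPM in c129 and 58.8 CPM in c130, against 36.0 CPM in fl125, 43.7 CPM in fl126 and 33.2 CPM in fl128. The groups did not overlap, but c124 was only slightly above fl126, and c129 stood at 3.17 times the mean of the other WT mice, more than for any other member. Ier2 fell by 1.26 on the log2 scale (SE 0.47, 95% interval -2.35 to -0.17; edgeR, adjusted p = 0.360). Without c129 the difference was -0.46 and was not called (adjusted p = 0.716), and with no minimum on expression it was -1.22 (adjusted p = 0.000301). The call was also lost without fl125 (-1.19, adjusted p = 0.387) and without fl128 (-1.18, adjusted p = 0.654).

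Ier3 (ENSMUSG00000003541, chr17:35821684-35822923, plus strand), also called IEX-1 and known for effects on cell survival, had, like Egr1, a wide spread among WT mice. It was at 163, 581 and 384 CPM in c124, c129 and c130 and at 157, 265 and 184 CPM in fl125, fl126 and fl128. The WT mouse c124 was at the level of the lowest cD2KO mice, while c129 and c130 were above all of them. The difference was -0.89 (SE 0.43, 95% interval -1.89 to 0.11; edgeR, adjusted p = 0.480), and it passed the unadjusted threshold without c124 (-1.26) and without fl126 (-1.14).

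Ier5 (ENSMUSG00000056708, chr1:155096361-155099636, minus strand), a 1-exon gene known as a regulator of heat shock factor activity, was at 43.3, 66.5 and 49.4 CPM in c124, c129 and c130. In fl125, fl126 and fl128 it was at 37.3, 27.5 and 43.0 CPM. The groups did not overlap, with c124 and fl128 almost level. The difference of -0.56 (SE 0.26; edgeR, adjusted p = 0.419) narrowly missed the unadjusted threshold, and passed it without c124 (-0.69) and without fl128 (-0.71).

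Its relative Ier5l (ENSMUSG00000089762, chr2:30471537-30474219, minus strand) was at 5.67, 12.6 and 15.7 CPM in c124, c129 and c130 and at 14.1, 7.57 and 6.32 CPM in fl125, fl126 and fl128. The lowest level of all belonged to a WT mouse, and the groups overlapped throughout. Its difference was -0.28 (SE 0.49, 95% interval -1.34 to 0.77; edgeR, adjusted p = 0.881), and 0.029 without c130. The windows of Ier3, Ier5 and Ier5l held none of the motifs searched.

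**Figure D2:**
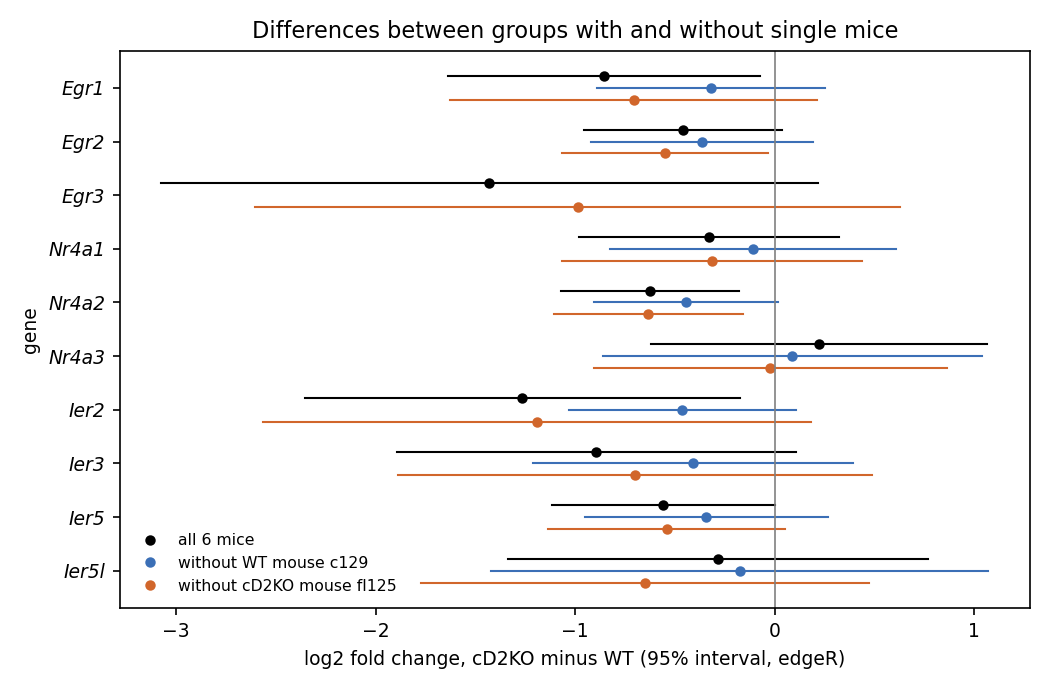
Fitted log2 fold change of each gene (cD2KO minus WT) with its 95% interval, from edgeR, with all 6 mice in black, without c129 in blue and without fl125 in orange. The intervals of Egr1, Nr4a2 and Ier2 lie below 0 with all mice, and none does without c129. Egr3 has no blue point because it was then under the expression minimum.

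The mouse-by-mouse pattern was uneven within WT. Averaged over the 10 genes, log2 CPM relative to each gene's own mean was -0.06 in c124, 0.70 in c129 and 0.24 in c130, and -0.28, -0.25 and -0.35 in fl125, fl126 and fl128. In this average the cD2KO mice were thus close to each other and the WT mice spread upwards from near them. Single genes could spread more among the cD2KO mice. Their values ran from -1.63 to 0.35 for Egr3, -0.79 to 0.33 for Nr4a1 and -0.55 to 0.53 for Ier5l. c129 was the highest of the 6 mice for 7 of 10 members, against 22.8% of all genes tested. Relative to the mean of c124 and c130, it was at 3.17 times for Ier2, 2.29 for Egr1 and 2.12 for Ier3, and at 1.17 to 1.46 times for the other members with a ratio above 1. Of the other WT mice, c124 was above all cD2KO mice for 5 members and c130 for 7. All cD2KO mice were below both c124 and c130 for 4 members, as for 14.3% of all genes.

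Without c129, 9 of the 10 genes were tested, 8 had a difference below 0, the median was -0.34 (0.01 over all genes), and 0 members fell or rose, against 3.46% and 4.33% of all genes. Without fl125, all 10 were below 0 with a median of -0.64, Egr2 and Nr4a2 fell and 0 rose, where 7.43% of all genes fell and 7.93% rose. With both left out, all 10 were below 0, the median was -0.39, and Nr4a2 alone fell, where 6.41% of all genes fell and 8.32% rose.

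**Figure D3:**
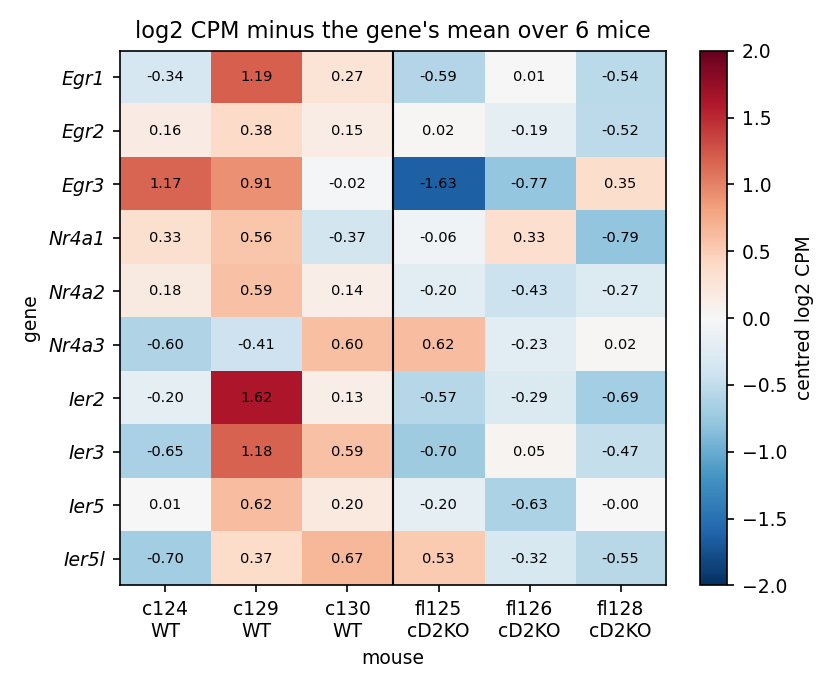
Log2 CPM of each gene in each mouse minus the gene's mean over the 6 mice, with WT mice left of the line and values printed in the cells. The column of c129 is red in all genes but Nr4a3 and reaches 1.62 for Ier2, and the cD2KO columns are mostly blue.

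The summed level of the 10 genes was 1216, 3159 and 1802 CPM in c124, c129 and c130 and 1051, 1452 and 1037 CPM in fl125, fl126 and fl128. Egr1 made up 55.8% to 63.8% of the sum in each mouse. Per kilobase of annotated exon, and averaged over the 6 mice, the order of levels was Ier3 (256 CPM per kb), Egr1 (218), Ier2 (42.2), Nr4a1 (25.0), Nr4a2 (18.9), Egr2 (14.2), Ier5 (13.6), Ier5l (3.85), Nr4a3 (3.09) and Egr3 (0.815). Neighbours in this order were compared by a two-sided exact sign-flip permutation test over the 6 mice, whose smallest p is 0.03125. Egr1 was above Ier2, Nr4a2 above Egr2, Ier5 above Ier5l and Nr4a3 above Egr3 in 6 of 6 mice (each exact p = 0.03125, adjusted over 9 pairs 0.0703, which does not pass). These levels assume reads along the whole annotated exon length, since the kind of library is not given in the sources used here. The other 5 neighbours did not differ beyond their spread (adjusted exact p of 0.161 to 0.594), Ier3 and Egr1 among them. Within families, 12 ratios between members were compared, all overlapped between the groups, and the smallest adjusted p was 0.686 (two-sided exact permutation test, whose smallest unadjusted p is 0.1).

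Most other immediate early genes also had lower fitted levels in cD2KO mice. Of 53 listed genes 45 were tested, and 42 (93.3%) had a difference below 0, against 51.9% of all genes. In this list 16 (35.6%) fell and 0 rose, against 6.62% and 5.34% of all genes, and the median was -0.63. The list was chosen with earlier results of these data known, so these shares are descriptions. Here, too, c129 was the highest mouse for 38 of the 45 genes (84.4%), against 22.8% of all genes tested. Klf4 and Klf2, zinc finger factors of the Krüppel-like family, fell by 1.41 and 1.45 on the log2 scale (edgeR, adjusted p = 0.0885 for both). Klf4 was at 108, 255 and 177 CPM in c124, c129 and c130 and at 67.4, 71.5 and 64.4 CPM in fl125, fl126 and fl128, so that the groups were well apart. The antiproliferative Btg2 fell by 1.30 (adjusted p = 0.132), the ERK phosphatase Dusp6 by 1.15 (adjusted p = 0.152) and the kinase Sgk1 by 0.72 (adjusted p = 0.194), each with every cD2KO mouse below every WT mouse. That order was found in 14 of the 45 tested genes of this list and in 10.04% of all genes.

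The AP-1 genes, which are usually induced together with Egr1, were mostly but not all lower in cD2KO mice. Fos was at 300.0, 1049 and 510 CPM in c124, c129 and c130 and at 215, 348 and 321 CPM in fl125, fl126 and fl128, and fell by 1.07 (edgeR, adjusted p = 0.388). Jun was at 509, 1344 and 795 CPM against 597, 559 and 437 CPM and fell by 0.73 (adjusted p = 0.375). Junb, at 209, 409 and 330 CPM against 209, 264 and 144 CPM, fell by 0.62 (adjusted p = 0.396). As for Egr1, c129 was highest and the groups overlapped through c124. Fosb, at 164, 976 and 444 CPM against 107, 238 and 164 CPM, had a difference of -1.64 that did not pass (adjusted p = 0.466). Atf3 separated the groups, with 50.7, 242 and 67.2 CPM against 39.6, 41.3 and 48.3 CPM, but its difference of -1.47 did not pass either (adjusted p = 0.458). Jund and Fosl2, named here with their values known, did not follow Egr1. Jund was at 1263, 1387 and 1181 CPM in c124, c129 and c130 and at 1261, 1688 and 1972 CPM in fl125, fl126 and fl128. Its groups overlapped, fl128 was highest, and its difference was 0.36 (adjusted p = 0.541), while that of Fosl2 was -0.34 (adjusted p = 0.644), with c124 highest. Without c129, 6 of 44 tested genes of the list of other immediate early genes fell (13.6%), against 3.46% of all genes. The median was then -0.27. The number that fell was 9 without fl128 and 27 without c124.

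The signalling genes that act upstream had differences on both sides of 0. Of 25 listed kinases and factors 24 were tested, with a median difference of -0.10. The kinase gene Mapk3 (ERK1) rose by 0.57 (adjusted p = 0.367), and Mapk14 (p38 alpha) and Rps6ka1 (RSK1) fell by 1.01 and 0.94 (adjusted p = 0.228 and 0.409). Each of these 3 overlapped between the groups. The falls in this list numbered 0 without c129, 1 without fl126 or fl128 and 1 with DESeq2 or limma voom, and the rises 0 without c129 or c130 and 2 without c124. Among 12 partners and corepressors 11 were tested and 0 were called (1 fell and 1 rose without fl125). The most abundant were the EGR corepressor gene Nab1, with means of 135 CPM (WT) and 182 CPM (cD2KO, adjusted p = 0.442), and Ppp2r5c, a phosphatase subunit gene, with 73.9 and 60.7 CPM (adjusted p = 0.729). Of 12 heat shock genes, all tested, Hspa1b fell by 1.08 (adjusted p = 0.354) and Hspb1 rose by 0.55 (adjusted p = 0.353), with a median of -0.10. With all mice 10 of these 12 had a difference below 0, against 51.9% of all genes. Without c129, 3 of the 12 did, against 48.7% of all genes, and the median was 0.08. The falls in this list numbered 0 without c129, fl125 or fl128, 2 without fl126 and 3 without c124, and the rises 0 without c124, fl125 or fl126.

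**Figure D4:**
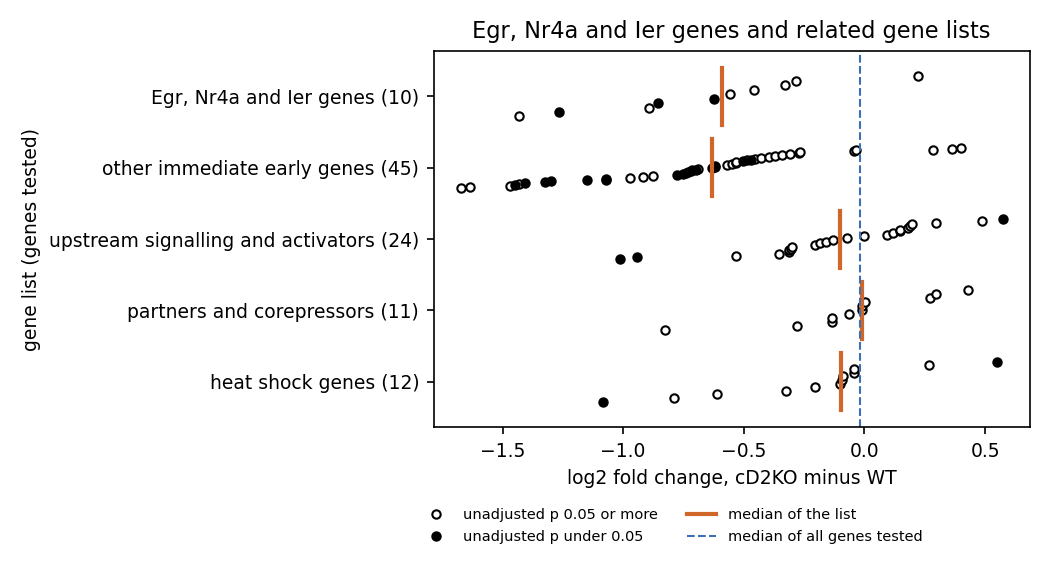
Log2 fold change (cD2KO minus WT) of each tested gene of 5 lists, filled where the unadjusted p was under 0.05, with each list's median as an orange bar and the median of all genes as a dashed line. The Egr, Nr4a and Ier genes (median -0.59) and the other immediate early genes (-0.63) lie to the left, and the other 3 lists are centred near 0.

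The genes whose pattern over the 6 mice was most like that of Egr1 were found among 11623 others by the root mean square difference of centred log2 CPM. They were Tap1, a peptide transporter gene of antigen presentation (0.0751), Hspa1a (0.101), Gpnmb, a gene of macrophages and lysosomes (0.144), Hspa1b (0.144) and Dnajb1 (0.147), against a median of 0.708. Hspa1a, Hspa1b and Dnajb1 are genes of the inducible heat shock response. Of the AP-1 genes, Fos ranked 16, Jun 27, Junb 65, Atf3 479 and Fosb 1084. Among the other members Ier3 (0.188) and Ier2 (0.239) were nearest and Nr4a3 (0.873) and Egr3 (0.907) farthest. With 6 points from the same libraries these likenesses are descriptions, and c129 was the highest mouse for each of the 5 genes nearest to Egr1. Nearest to the mean of the 10 genes were Lefty1 (0.0749), Sec11c (0.0814), Hspa5 (0.0890), Ankrd44 (0.0962) and Ubl3 (0.1003), where the median gene was at 0.512. Here Jun ranked 276, Junb 500, Fos 3147, Atf3 6800 and Fosb 9520. By this measure Atf3 (0.556) and Fosb (0.730) were thus farther from this mean than the median gene. The measure is not scaled, so a gene with larger swings lies far off even where it orders the mice alike. Fosb put the 6 mice in the same order as Egr1 did.

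Lists of markers of other cells were lower in cD2KO mice in some cases and higher in others. The 15 immune markers were all tested, all had differences below 0, 4 fell (Ptprc, Cd68, Itgam and Adgre1), and their median was -1.84. Their sum lay between 4726 and 8883 CPM in WT mice and between 240.0 and 3246 CPM in cD2KO mice, lowest in fl125 and highest in c129, which was the highest mouse for all 15. Without fl125, 13 of them fell, and without c129, 2 did. Ptprc, which encodes the pan-leukocyte antigen CD45, was at 18.3, 69.8 and 24.7 CPM in c124, c129 and c130 and at 4.10, 15.8 and 7.90 CPM in fl125, fl126 and fl128. For both Ptprc and Egr1 the highest mice were c129 and c130, and the lowest was fl125. The level of Egr1 was 587 CPM in fl125 and 607 CPM in fl128. The part of immune RNA in the results was not tested.

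Of 14 endothelial markers 11 were tested and 6 fell, with 273 to 389 CPM (WT) and 213 to 274 CPM (cD2KO), and Pecam1 was at 8.498 to 18.2 and 1.72 to 6.32 CPM. The 11 fibroadipogenic markers summed to 4583 to 7590 CPM (WT) and 2863 to 5859 CPM (cD2KO), with 4 that fell (2 without c129) and Pdgfra at 0.911 to 9.28 CPM. The 12 mural markers, genes of pericytes and smooth muscle, mostly went the other way. They summed to 6227 to 10455 CPM (WT) and 12515 to 18676 CPM (cD2KO). Of them 7 rose (Myh11 from a WT mean of 2192 CPM to 4371 CPM), and 3 had a difference below 0. With c129 and fl125 left out together, 7 rose and 2 fell. The 12 MuSC markers were at 1179 to 1545 CPM (WT) and 1498 to 1864 CPM (cD2KO), and Myf5, Cdh15 and Itga7 rose. Vcam1, Cd34, Spry1 and Sdc4 had differences below 0 that were not called, and the median of the list was 0.22. Its rises numbered 2 without c129, and 1 without fl125, where 1 marker fell. With both mice left out, 1 rose and 1 fell, 6 of the 12 were below 0 and the median was 0.009. Pax7 itself was at 411, 213 and 434 CPM in c124, c129 and c130 and at 691, 455 and 316 CPM in fl125, fl126 and fl128, so that the labelled cell type was present in all mice and c129 was the lowest. Of 10 myofibre genes 0 were called, with 2233 to 4992 CPM (WT) and 4098 to 7783 CPM (cD2KO) and Acta1 at 535 to 2131 CPM. All 10 had differences above 0 (median 0.54), and 7 rose without c129, 6 without fl125 and 8 with both left out. No marker listed was at 0 in all mice, and the share of counts on mitochondrial genes was 9.09% in c129 and 11.3% to 15.8% in the others. The part of these cells and of this share in the results was not tested.

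**Figure D5:**
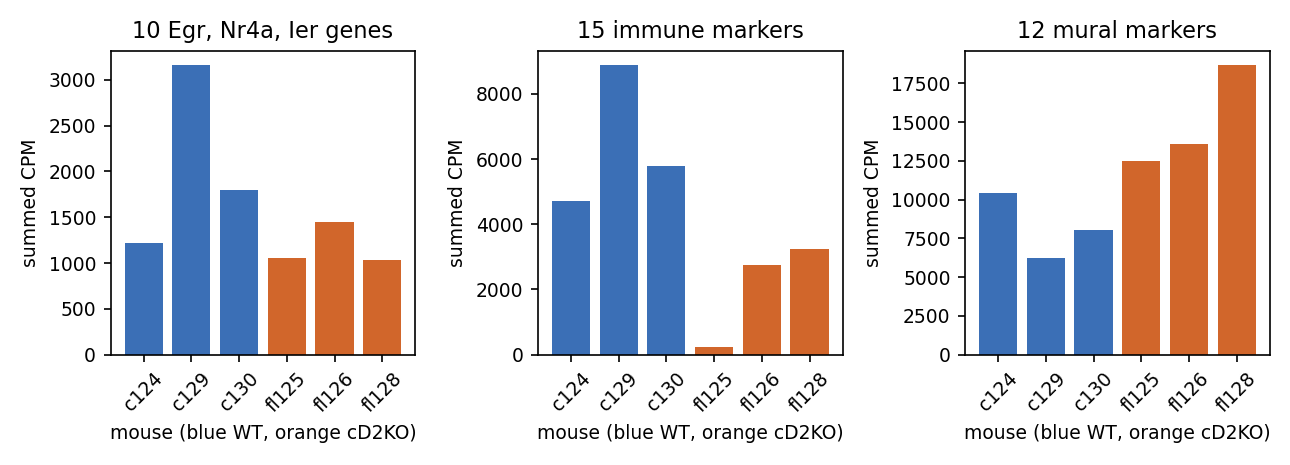
Summed CPM in each mouse of the 10 Egr, Nr4a and Ier genes, of the 15 immune markers and of the 12 mural markers, with WT mice in blue and cD2KO mice in orange. c129 is highest in the first and second panels (3159 and 8883 CPM) and lowest in the third (6227 CPM), and fl125 is almost empty of immune markers (240.0 CPM).

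The Egr and Ier genes were short, while the Nr4a genes were not all so. Over the annotated transcript taken for each gene, the median span of all 10 members was 4741 bases, against 22287 bases for the 11349 protein-coding genes tested. The 10 members had a median of 2 exons against 9. The 3 Egr genes spanned 4320 to 5237 bases and the 4 Ier genes 1240 to 3276 bases, with 1 or 2 exons each. Nr4a1, Nr4a2 and Nr4a3 had 8 exons each and spanned 20527, 8209 and 37334 bases, so that Nr4a3 was longer than the median gene. Ier2, Ier5 and Ier5l had a single exon, which made 30% of members against 2.14% of those genes. The pentamer ATTTA, the core of the AU-rich elements that shorten the life of early mRNAs, occurred after the stop codon at a median of 2.33 per kb against 1.31 per kb. It was densest in Ier3 (8.16 per kb) and Nr4a1 (5.53 per kb) and absent in Ier2. The longer TTATTTATT was found in 0 of 10 members and in 8.20% of the protein-coding genes tested. None of the 10 genes overlapped another annotated gene, so that no overlapping gene could share their reads.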

How the data were processed

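Libraries were made from qMuSC RNA, 1 for each of 3 WT and 3 cD2KO mice, and groups were taken from the genotype in the labels. The authors deposited raw counts of reads per gene, without normalization, which per the labels' processing notes were made with bcl2fastq, STAR 2.6.0a and HTSeq 0.9.1 on mm10. The gene annotation, the use of strand, the kind of library and any removal of PCR duplicates are not given in the sources used here. Of the 31053 gene identifiers, 30934 were found in GENCODE M21, which gave symbols and mm10 coordinates.

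Testing was limited to the 11633 genes whose counts, normalized by DESeq2 size factors, averaged above 10, the study's own minimum. All 6 mice entered a robust quasi-likelihood fit of edgeR 4.0.16 (R 4.3.3) with TMM scaling and no covariate, and Benjamini-Hochberg adjustment covered every gene tested. A call is an unadjusted p under 0.05, the study's threshold. Log2 CPM have a prior count of 2, and standard deviations are between mice. Single values were compared by two-sided exact permutation tests. The fits were first tested on simulated data. At these depths 3 counts equal 0.773 to 1.37 CPM, counting error only.

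The 10 genes and all gene lists were chosen with earlier results of these data known. All 10 are named, with up to 5 called genes per direction of each list of other immediate early, upstream, partner, heat shock and sex-linked genes (the 2 most abundant where none was called), Fos, Fosb, Jun, Junb and Atf3, the 5 genes most like Egr1 and like the mean of the 10, the defining marker of each cell type reported and Dio2. Other marker genes, Jund and Fosl2 were named with their values known. The result of 1 marker list is not reported here. The alternatives tried were DESeq2 1.42.0 (Wald), limma 3.58.1 voom, DESeq2 size factors or total-count scaling in edgeR, no minimum, a minimum of 50, edgeR's own filter, non-robust estimation, each mouse left out in turn, and c129 and fl125 left out together, which was added after the data had been seen. Promoter sequences are RefSeq's for GRCm38.p6.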

Additional observations from a re-analysis of the deposited data

How the results depend on the processing

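Of 145 refits of single members, 121 kept direction and side of the threshold, 9 lost the call, 11 gained it and 4 changed sign. With single mice left out Nr4a3 ranged from -0.022 (fl125, and -0.011 without c124) to 0.70, and it was -0.18 without c129 and fl125, while Ier5l ranged from -0.65 to 0.029 (c130). Members that fell numbered 3, and 5 with total-count scaling, 1 without c129 and fl125, and 0 to 5 with single mice left out (0 without c129, 5 without c124); the number that rose was 0 throughout. Over all genes, 621 rose and 770 fell, and with total-count scaling 439 and 953. The rises numbered 939 with no minimum, 974 without c129 and fl125 and 402 to 933 with single mice left out (402 without fl128, 933 without fl125), and the falls 505 with a minimum of 50 and 399 to 874 with single mice left out (399 without c129). Other immediate early genes that fell numbered 7 without c129 and fl125 and 6 to 27 with single mice left out (6 without c129, 9 without fl128, 27 without c124), and those that rose 2 without c129 and fl125 and 0 to 2 otherwise (2 without fl125). The cause was not tested. Egr1 and Ier2 also lost the call without fl125 (adjusted p = 0.455 and 0.387) or fl128 (0.681 and 0.654). Ier3 passed in 5 alternatives, Ier5 in 4 and Egr2 in 2. Egr3 was under the minimum in 3 of the 6 fits without a mouse and with a minimum of 50, and Ier5l with the latter, so they gave no value there. No paired analysis was possible because the labels give no numbers shared between groups. Depth limits Egr3 most, with 1 to 28 counts per mouse.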
